A study of Mus musculus with 99 samples.

Results

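PCGF6 marks a variant form of Polycomb repressive complex 1 (PRC1), and its sites in mouse embryonic stem cells (ESCs) were split here by what else was bound. Of 7882 PCGF6 peaks called in untreated Parental cells, 4201 (53.3%) overlapped by no base any PCGF2 peak and any H3K27me3 peak of the same cells. These 4201 sites, called free sites below, were selected on measured peak calls, so the absence of PCGF2 and H3K27me3 in that list is not a result. The remainder comprised 2775 sites with both marks, called shared sites, 705 with H3K27me3 only and 201 with PCGF2 only. Free sites had a median PCGF6 score, the −log10 p of the peak caller, of 16.6 (range 10.0 to 578), and shared sites of 18.1. At the border of the rule, 48 free sites had a PCGF2 or H3K27me3 peak within 100 bp (median PCGF6 score 17), and 65 excluded sites overlapped such peaks by at most 100 bp (18.2). Over all free sites the nearest PCGF2 or H3K27me3 peak lay a median of 38304 bp away.

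Parental cells carry ROSA26::creERT2 with RING1A-/- and RING1B fl/fl, so RING1A is absent before and after treatment and 4-hydroxytamoxifen (OHT, 0.5 µM, 72 h unless stated) deletes RING1B. RING1B WT and RING1B I53S cells are clones of this line that also express, from a pCAG vector, 2xFLAG-HA-tagged wild-type RING1B or the catalytically dead I53S form. Lines without MTF2 were made in each background, Eed fl/fl cells with the same Cre lose the PRC2 subunit EED, and −OHT cells of every line received ethanol as vehicle. RNA-seq had 2 libraries per condition and ChIP-seq a single one, so ChIP values have no replicate check, apart from the 72 h MTF2 and JARID2 lists of the treated RING1B WT and RING1B I53S lines, of which there were 2 each. Because clones differ and each ChIP list has its own depth, a difference between lists cannot be told apart from a difference in list size, and list sizes are given beside many of the values. No source says that the RNA replicates were separate cultures, and p-values then measure only the spread between these libraries.

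PCGF6 is one of several PCGF proteins that each build their own PRC1 around RING1A or RING1B. The PCGF6 form, PRC1.6, also holds RYBP or YAF2, L3MBTL2, the MAX and MGA pair, which binds E-box DNA, and E2F6 with a DP partner, which binds E2F sites. It is known for silencing germline and meiotic genes in ESCs. PCGF2 (MEL18) instead marks mainly canonical PRC1, whose CBX subunit, such as CBX7, reads H3K27me3 laid down by PRC2.

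The DNA at free sites is shown first for members that hold an E-box (CACGTG, a palindrome) or an E2F motif (GCGGGAA, read on both strands) in the central 300 bases. They come from the strongest free sites and the strongest free sites of germline genes, whose other sites held neither motif there, and capitals mark the motif nearest the peak centre. All are plus-strand mm10 (GRCm38) sequence from the RefSeq assembly.
Cops7a, chr6:124965262-124965287: tggccgccccCACGTGacctcacctc
Stk31, chr6:49395457-49395516: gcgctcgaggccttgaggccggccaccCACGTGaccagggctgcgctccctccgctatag
Tdrd12, chr7:35537444-35537503: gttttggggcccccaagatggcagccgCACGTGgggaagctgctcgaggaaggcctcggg
Fkbp6, chr5:135350049-135350108: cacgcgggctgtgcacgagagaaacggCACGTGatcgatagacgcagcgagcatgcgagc
Tdrd9, chr12:111971437-111971496: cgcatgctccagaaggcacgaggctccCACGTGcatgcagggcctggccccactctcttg
Cc2d1a, chr8:84148030-84148056: ggcctcacggGCGGGAAaaagagagag
Hsf2bp, chr17:32034542-32034568: acacaaaaacGCGGGAAtcttaagatg
Terb2, chr2:122186175-122186201: cctgaggcctTTCCCGCcctttcccct
In Cops7a, Cc2d1a, Hsf2bp and Terb2 the stretch overlaps an annotated UTR, and only the motif with 10 bases on each side is printed. On the plus strand the motif lay at -14 bases from the peak centre in Cops7a, -16 in Fkbp6 and 12 in Terb2.

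E-boxes set the free sites apart from the shared sites. A CACGTG stood within the central 300 bases of 940 of 4201 free sites (22.4%, 95% Wilson interval 21.1 to 23.7) and of 288 of 2775 shared sites (10.4%, 9.30 to 11.6), against 7.15% of 32851 RefSeq promoter windows of the same length. The 705 sites with H3K27me3 only had 23.7% (20.7 to 27), so the share was not particular to free sites. Around free sites the E-box density was 47.3 per 1000 sites per 50 bases within 100 bases of the centre and 8.56 beyond 500 bases, and around shared sites it was 18.6 and 8.61. The same split was seen at sites near a gene start alone (20.6% of 2990 free and 9.04% of 2389 shared sites). The share did not climb with PCGF6 score: it was 22.2% at scores of 10 to 12 and 21.6% (17 to 27) at 60 or more. Intervals here and below cover counting error over sites, and neighbouring sites are not fully independent.

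**Figure D1:**
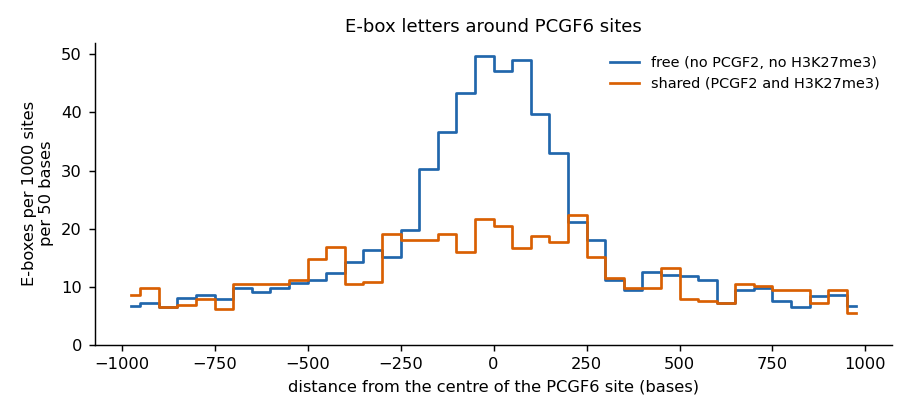
Number of CACGTG matches per 1000 sites in bins of 50 bases (y axis) against distance in bases from the centre of the PCGF6 site (x axis), for free sites (blue) and shared sites (orange). Free sites rise to a central peak (mean 47.3 within 100 bases) while shared sites stay near 18.6, and both return to about 8.6 beyond 500 bases.

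The other motifs separated the classes less. The E2F letters were found in 11.1% (10.2 to 12.1) of free and 9.26% (8.24 to 10.4) of shared windows, with 4.60% of RefSeq promoters. The T-box letters AGGTGTGA, a motif that MGA can also bind, was in 2.29% (1.88 to 2.78) of free and 0.793% (0.524 to 1.2) of shared windows, with 1.28% of promoters. Free windows held less G+C than shared windows (median 62.0% against 67.7%) and fewer CpG for their base content (observed over expected 0.733 against 0.822). Between these 2 classes the higher E-box and T-box shares thus did not go with a higher G+C share. RefSeq promoter windows were lower in both (52.7% and 0.384), and the part of base content in the gap to promoters was not tested. A match shows letters in a window and not a bound factor.

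Free sites were promoter sites in the main, but less so than shared sites. The centre lay within 2.5 kb of a GENCODE start at 2990 free sites (71.2%), in another exon at 142 (3.38%), in an intron at 415 (9.88%) and between genes at 654 (15.6%, 14.5 to 16.7). The same shares of shared sites were 86.1%, 6.63%, 2.59% and 4.68% (3.96 to 5.54). At intergenic free sites 27.4% of windows held an E-box, with a CpG ratio of 0.389, against 20.6% and 0.838 at starts. Chromosome 11 carried 596 free sites (14.2%), while it makes up 4.48% of the genome's length and holds 5.43% of its genes. It also carried 13.5% of shared sites, 24.4% of RYBP peaks and 9.58% of PCGF2 peaks in untreated Parental cells.

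The 10 free sites with the highest PCGF6 scores had a peak in all 3 PCGF6 lists after OHT. The highest (score 578) spans chr6:124964570-124966008, at the start of Cops7a, a COP9 signalosome subunit. The next lay in Gdf15 (406), which codes for a stress-induced secreted factor, at Zfp280d (348) and between B3galt6 and Sdf4 (310). The fifth, chr8:19979769-19980913 (309), had no gene start within 2.5 kb. Further sites were at Acbd4 with Plcd3 (302), Nipsnap2 (290), Stk31 (275) and the shared start of Morc2a and the long non-coding RNA Tug1 (270). Of these 10 sites, 7 carried a RING1B peak, 8 a RYBP peak and 8 an H2AK119ub1 peak in untreated Parental cells. Among the genes encoding PRC1.6 itself, 7 of 16 listed had a free site at a start (Pcgf6, Mga, Max, Rybp, Tfdp1, Tfdp2 and Wdr5), with scores of 199 at Mga, 81.5 at Tfdp1, 18.8 at Pcgf6 and 11.8 at Max.

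Most free sites carried no detectable peak of the PRC1 enzyme or its mark. In untreated Parental cells RING1B peaks covered 240 of 4201 free sites (5.71%, 5.05 to 6.46) and 96.6% of shared sites, from a list of 5073 peaks. H2AK119ub1, the mark that RING1B writes, was called at 613 free sites (14.6%, 13.6 to 15.7) and at 73.7% of shared sites. RYBP, a subunit of variant PRC1 that stimulates the enzyme, was called at 787 free sites (18.7%, 17.6 to 19.9) and 51.5% of shared sites, and CBX7 at 35 (0.833%) and 95.2%. RING1B, RYBP and H2AK119ub1 thus covered fewer free than shared sites, by intervals that do not overlap, and the gap was narrowest for RYBP.

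These shares rose with PCGF6 score. RING1B was called at 1.21% of free sites scoring 10 to 12 and at 43.2% (37.4 to 49.3) of the 259 scoring 60 or more. RYBP went from 6.06% to 66.4% and H2AK119ub1 from 10.2% to 39.0%. The components went together, since 65.4% of the 240 free sites with RING1B had RYBP, against 15.9% of the rest, and 50.4% had H2AK119ub1, against 12.4%. With weak peaks near the calling limit, a missing peak means that none was called at this depth and not that the protein was absent.

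PRC2 subunits were called at some free sites although H3K27me3 was not. SUZ12, a core subunit, covered 770 free sites (18.3%, 17.2 to 19.5), JARID2 924 (22%), EPOP 382 (9.09%), AEBP2 1, and MTF2, which brings PRC2 to CpG-rich DNA, 2368 (56.4%, 54.9 to 57.9). All shared sites had SUZ12 and MTF2. Where present, these peaks were low: the median SUZ12 score was 16.7 on free and 240 on shared sites, and the median MTF2 score 25.7 and 686. Of the free sites with SUZ12, 99.0% also had MTF2. MTF2 hardly changed with PCGF6 score (51.5% at 10 to 12 and 61.0% at 60 or more), unlike RING1B. The MTF2 list of untreated Parental cells was the longest of all, with 24485 peaks, and the untreated RING1B WT and RING1B I53S lists of 13559 and 11623 peaks covered 29.4% and 23.6% of free sites.

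**Figure D2:**
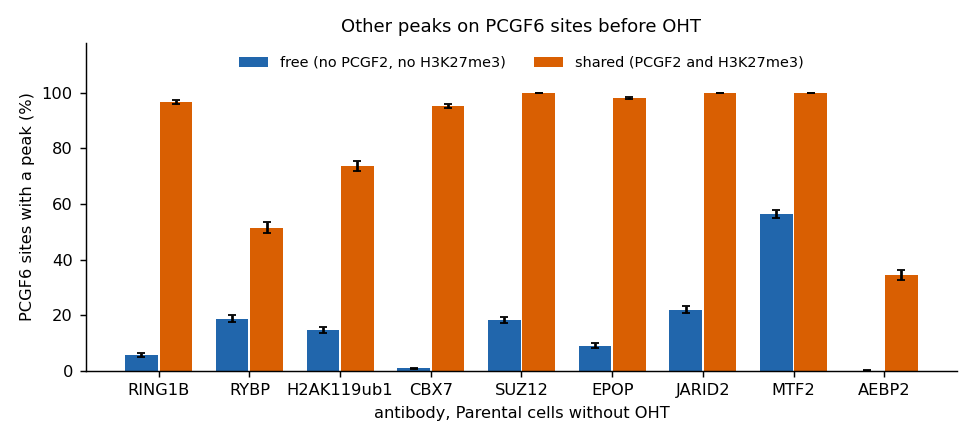
Percentage of free sites (blue, 4201) and shared sites (orange, 2775) with a peak of each antibody in untreated Parental cells, with 95% Wilson intervals over sites. RING1B (5.71%), RYBP (18.7%), H2AK119ub1 (14.6%) and CBX7 (0.833%) are all lower on free than on shared sites, and MTF2 (56.4%) is the most frequent on free sites.

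After OHT, free sites kept PCGF6 peaks more often than shared sites in Parental cells and less often in RING1B WT cells. In Parental cells, which then lack RING1A and RING1B, 2284 free sites (54.4%, 52.9 to 55.9) and 39.7% of shared sites (37.9 to 41.6) had a PCGF6 peak in a list of 4767. In RING1B WT cells with OHT (7357 peaks) the shares were 57.2% (55.7 to 58.6) and 95.3% (94.5 to 96.0). In RING1B I53S cells with OHT (2377 peaks) they were 27.6% (26.2 to 28.9) and 28.9% (27.3 to 30.7), whose intervals overlap. All 3 shares were set against the same untreated Parental list, and since that ChIP was not repeated, how many of these peaks a second untreated library would recover was not measured.

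The direction held at matched PCGF6 scores, up to 60 in Parental and up to 30 in RING1B WT cells. Among sites scoring 15 to 20, 49.2% (45.8 to 52.6) of 837 free and 25.7% (22.5 to 29.3) of 637 shared sites kept a peak in Parental cells, and 52.9% and 96.2% in RING1B WT cells. In RING1B I53S cells the same bin gave 15.1% and 16.5%, and the intervals of the classes overlapped in every bin. At scores of 60 or more, 98.5% of free sites kept a peak in Parental, 100% in RING1B WT and 93.8% in RING1B I53S cells. Retention of weak free sites in RING1B WT cells (23.3% at scores of 10 to 12) was within counting error of that in Parental cells (24.0%), whereas for weak shared sites it was 84.1% against 10.2%.

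**Figure D3:**
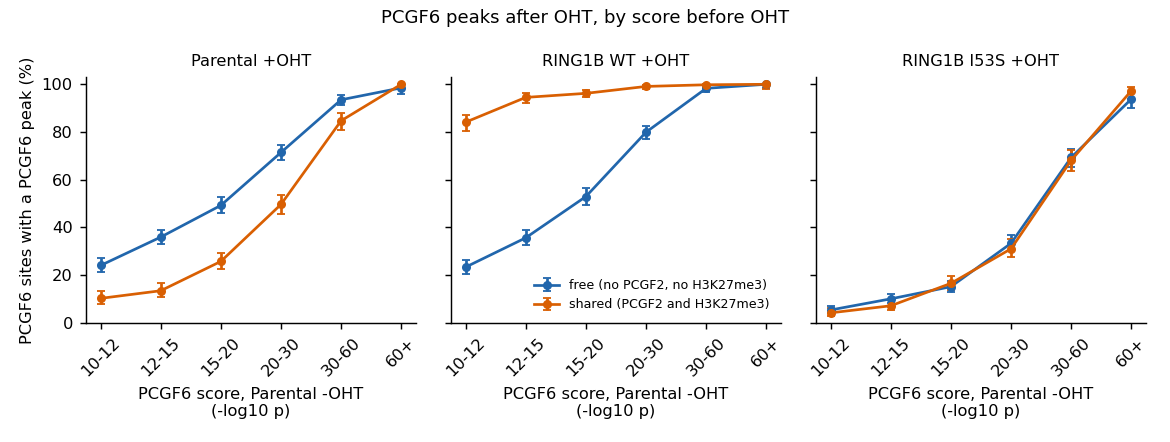
Percentage of PCGF6 sites with a PCGF6 peak after OHT (y axis) by PCGF6 score before OHT, the −log10 p in untreated Parental cells (x axis), in 3 lines, for free (blue) and shared (orange) sites, with 95% Wilson intervals. Free sites lie above shared sites in Parental cells below a score of 60, below them in RING1B WT cells at scores under 30, and with overlapping intervals in RING1B I53S cells.

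The lists were nested in large part. All 3 treated lists held 1024 free sites (24.4%), 769 (18.3%) were held by Parental and RING1B WT only, 574 (13.7%) by RING1B WT only, 406 (9.66%) by Parental only, and 1294 (30.8%) by none. Of the 1158 free sites kept in RING1B I53S cells, 1109 (95.8%) were kept in Parental cells too. Of those kept in RING1B WT cells, 74.7% (72.9 to 76.4) were kept in Parental cells, against 41.4% (39.5 to 43.2) of shared sites. The 1024 sites kept throughout had median PCGF6 scores of 35.8 before OHT and 32.4, 30.2 and 17.8 after OHT in Parental, RING1B WT and RING1B I53S cells. The 667 shared sites kept throughout scored 38.9, and 24.9, 64.7 and 17.9, so the shared sites were the ones with a higher score in RING1B WT cells.

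Sites that kept PCGF6 differed from those that did not in features the rule had not used. With RYBP in untreated Parental cells, 79.3% of free sites kept PCGF6 in Parental, 86.3% in RING1B WT and 52.2% in RING1B I53S cells, and without it 48.6%, 50.4% and 21.9%. E2F letters stood in 14.2% (12.8 to 15.7) of free sites kept in Parental cells and in 7.41% (6.32 to 8.67) of those not kept. The shares were 13.6% (11.8 to 15.7) and 10.1% (9.10 to 11.2) in RING1B I53S cells. They were 12.1% (10.9 to 13.5) and 9.72% (8.44 to 11.2) in RING1B WT cells, where the intervals overlap. E-boxes stood in 23.9% (22.2 to 25.7) and 20.6% (18.8 to 22.4) in Parental cells, 24.0% and 21.8% in RING1B I53S cells, and 22% and 22.8%, the other way, in RING1B WT cells. Sites kept in Parental cells were also more CpG-rich (ratio 0.814 against 0.602) and higher in PCGF6 score, and these were not separated. On chromosome 11 retention was higher than elsewhere in Parental (64.1% against 52.8%), RING1B WT (62.4% against 56.3%) and RING1B I53S cells (39.6% against 25.6%).

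RING1B, PCGF2 and H3K27me3 did not appear on free sites after OHT in number. RING1B was called at 0.476% of them in Parental, 1.69% in RING1B WT and 1.19% in RING1B I53S cells, while it returned to 81.9% of shared sites in RING1B WT cells. PCGF2 covered at most 0.381% and H3K27me3 at most 1.19% of free sites in the 3 treated lines. RYBP covered 4.40% in RING1B WT and 4.98% in RING1B I53S cells with OHT, from lists of 1177 and 697 peaks. The only untreated RYBP list used here is that of Parental cells (18.7% of free sites, 2989 peaks), so OHT and line cannot be told apart for RYBP. The intervals of the 2 lines overlap (3.82 to 5.07 and 4.36 to 5.67), and no RYBP list assigned to Parental cells with OHT was used here.

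H2AK119ub1 peaks on free sites did not fall in number in cells without RING1A and RING1B. In Parental cells with OHT 770 free sites (18.3%, 17.2 to 19.5) had a peak, against 613 (14.6%) before, although the list shrank from 12648 to 5450 peaks. In the same treated list 69.4% of shared sites had a peak, so called peaks after OHT were not particular to free sites. In RING1B WT cells with OHT 17.4% had one, from 15830 peaks, and in RING1B I53S cells 7.43%, from 3120. Of the 613 sites marked before OHT, 346 (56.4%) were also in the treated Parental list, and 424 sites were in the treated list only. Free sites with H2AK119ub1 in treated Parental cells more often had SUZ12 (30.6% against 5.80% of the rest) and MTF2 (32.3% against 9.39%) in the same cells. Their genes had a median level in untreated cells of 5.69 and 5.35 RPKM, a read count scaled to normalized library total and exon length, in the 2 libraries, against 3.98 and 3.92 for all genes at free sites. Peaks were called within each library, so a peak says that a region stood above its own background and nothing of the amount of mark per cell. By western blot the study reports a global loss of H2AK119ub1 in treated Parental and RING1B I53S cells. It also reports loss at RING1B targets in RING1B I53S cells by ChIP-seq, with a spike-in for histone marks. The called peaks therefore do not show that the mark was kept. Input lists of the lines without MTF2 held at most 5 free sites.

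JARID2 and MTF2 covered fewer free sites after OHT than before in each line, and SUZ12 fewer than in untreated Parental cells, the only untreated SUZ12 list used here from the 3 lines with MTF2. The treated Parental lists were also shorter than the untreated ones for MTF2 (8806 peaks at 48 h) and JARID2 (3058 at 48 h). The treated Parental EPOP list held 2840 peaks. These falls cannot be told apart from list size. SUZ12 covered 10.4% of free sites in Parental, 9.74% in RING1B WT and 4.31% in RING1B I53S cells with OHT, against 18.3% in untreated Parental cells. EPOP covered 3.19%, 8.59% (7.78 to 9.48) and 4.52%, of which the RING1B WT value overlaps the untreated Parental one (8.26 to 10.0). MTF2 covered 16.5%, 18.5% and 19% at 48 h in the same order, and 13.6% in Parental cells at 72 h. At 72 h its replicates gave 15.2% and 9.81% in RING1B WT and 3.64% and 15.8% in RING1B I53S cells, a spread within one line that is wider than the gap between lines. JARID2 was at or below 1.09% in every treated list, also in the RING1B WT lists, where 95.1% to 97.0% of shared sites kept it. In untreated cells JARID2 covered 4.09% of free sites in RING1B WT and 2.09% in RING1B I53S cells, against 22% in Parental cells, whose list of 14778 peaks was the longest. Without MTF2, SUZ12 covered 1.69% of free sites in untreated and 5.62% in treated Parental cells, although the list shrank from 4170 to 1801 peaks, and 4.50% in RING1B WT and 1.74% in RING1B I53S cells with OHT.

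A gene was assigned to a free site when any annotated start lay within 2.5 kb of the peak centre. This gave 3990 genes (3068 protein-coding) at 2990 sites, and 1211 sites had none. Of these genes 601 also had a PCGF2 or H3K27me3 peak within 2.5 kb of a start, though not on the PCGF6 site, and 106 were also at a PCGF6 site outside the class. Genes at free sites were expressed: their median level in the 2 untreated Parental libraries was 3.98 and 3.92 RPKM, and 0.150 and 0.136 RPKM for genes at shared sites, with 3.17 and 3.06 over the 18154 genes tested. The first 2 sets hold all 3990 and 2809 assigned genes. The 18154 are only those past a filter on low counts, so their median is not on a like set. Medians over the 6 bins of PCGF6 score ran from 3.77 to 4.49 RPKM in the first library and from 3.74 to 4.30 in the second, with no steady trend. Total counts per RNA library were 6957248 to 12743460. Counts were taken without strand, so paired starts such as Morc2a and Tug1 cannot be fully told apart.

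Few genes at free sites passed both the adjusted p and the size threshold with OHT, and those that did were mostly higher, whereas by adjusted p alone more were lower. In Parental cells 112 of the 3209 that passed the filter on low counts were higher (3.49%) and 38 lower (1.18%), by edgeR's quasi-likelihood test at an adjusted p under 0.05 and a log2 change of 1.5 or more in size. Over all genes tested 15.1% were higher and 1.83% lower, and of 2001 tested genes at shared sites 1113 (55.6%) were higher and 8 lower. The median log2 fold change was −0.11 at free sites, 0.03 over all genes and 1.90 at shared sites. In RING1B I53S cells 87 (2.71%) were higher and 19 (0.592%) lower, with backgrounds of 12.8% and 1.04% and a median of −0.11. In RING1B WT cells 12 (0.374%) were higher and 2 lower, with backgrounds of 1.34% and 0.0386%. The higher calls were thus rarer at free sites than over all genes in each of these lines. By adjusted p alone 349 genes at free sites were higher (10.9%) and 505 lower (15.7%) in Parental cells, with backgrounds of 21.9% and 12.4%. For RING1B I53S cells these were 252 (7.85%) and 306 (9.54%), with backgrounds of 18.4% and 8.37%.

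Neighbouring PCGF2 or H3K27me3 divided these genes. In Parental cells 64 of 490 tested genes with such a peak within 2.5 kb of a start were higher (13.1%, median 0.38) and 3 lower. Among the 2719 without one, 48 were higher (1.77%) and 35 lower (1.29%), with a median of −0.18. RING1B I53S cells gave 51 (10.4%) and 36 (1.32%) higher, with medians of 0.36 and −0.15. At sites that carried H2AK119ub1 in untreated Parental cells 4.36% of genes were higher in Parental cells, and 3.32% at those that did not. At sites with RING1B the share was 5.51%, all below the 15.1% over all genes. Over the bins of PCGF6 score the share ran from 2.75% to 4.44%, with 3.46% at scores of 10 to 12 and 3.54% at 60 or more.

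**Figure D4:**
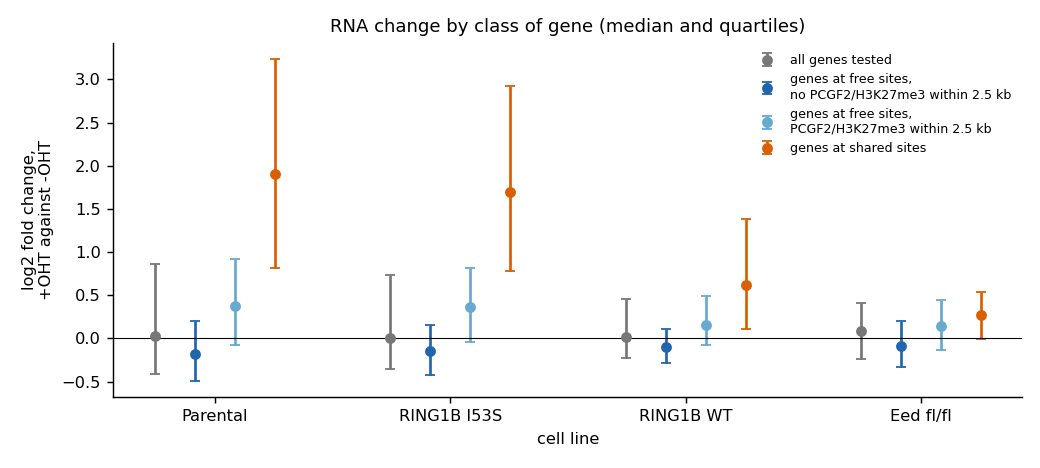
Median log2 fold change with OHT against −OHT (points) and quartiles (bars) in 4 lines, for all genes tested (grey), genes at free sites without (dark blue) or with (light blue) a PCGF2 or H3K27me3 peak within 2.5 kb of a start, and genes at shared sites (orange). In Parental cells the medians are 0.03, −0.18, 0.38 and 1.90.

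In Eed fl/fl cells with OHT, which lose EED and so PRC2, no gene at a free site was called by edgeR among 3352 tested, 210 having an unadjusted p under 0.05. Over all 25170 genes tested, 0.00795% were higher and 0% lower, so this comparison called next to nothing anywhere. DESeq2 called 3 of 3868 genes at free sites, 158 having an unadjusted p under 0.05. An edgeR fit blocked on replicate number called 8 genes at free sites higher and 2 lower. The shares of all genes called by DESeq2 and by the blocked fit are not given here. These counts are thus not set against a background. Replicate differences correlated at 0.562 between the treated and untreated libraries, and the study lists more than 1 Eed fl/fl clone, while the labels do not say which library came from which. Eed itself stood at 255 and 173 CPM, the count scaled to the normalized library total, in the untreated and 67.1 and 43.7 in the treated libraries. Rnf2, which encodes RING1B, stood at 198 and 257 CPM in untreated and 144 and 167 in treated Parental cells, as counts over the whole gene that do not test the deletion of part of it. The RING1B list of Parental cells shrank from 5073 to 690 peaks with OHT.

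Germline and meiosis genes, the class PRC1.6 is known for, were present on free sites but changed unevenly. Of a list of 60, 21 had a free site, as did 3209 of all 18154 genes tested. In Parental cells 9 of the 21 were called higher and none lower (median log2 fold change 1.12), 2 being lower by adjusted p alone, where 15.1% of all genes were higher, in RING1B I53S cells 6 (0.66) and in RING1B WT cells 2 (0.57). Of the 9, Tex101, Rec8, Zcwpw1, Fkbp6 and Nanos3 had a PCGF2 or H3K27me3 peak within 2.5 kb of a start. Asz1, Tex11, Stk31 and Tdrd9 had none. Of the 37 tested genes of the list without a free site, 26 were higher in Parental cells (median 2.35). The germline genes at free sites were already expressed, with medians of 5.74 and 6.76 RPKM in untreated Parental cells against 1.19 and 1.06 RPKM for the remainder of the list. Of 5 late germ cell markers, only Sycp3 has a free site. Their summed level went from 80.3 and 100 to 418 and 468 CPM in Parental cells. There 4 were called higher, and 3 in each of the RING1B I53S and RING1B WT lines. Sycp3 was called in none of these lines, so the called markers had no free site. In Parental cells Sycp3 went from 25 and 25 to 57.2 and 51.2 CPM.

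The 10 germline genes with the strongest free sites did not move together. Stk31, a germ cell kinase gene, stood at 18.6 and 21.9 CPM in untreated and 62.6 and 64.4 CPM in treated Parental cells (log2 fold change 1.65 ± 0.29 SE, adjusted p = 0.000226). In RING1B I53S cells it went from 15.3 and 27.2 to 41.3 and 64.0 CPM, and the fold change of 1.31 ± 0.29 was below the size threshold. In RING1B WT cells it stood at 18.0 and 23.6 CPM before and 22.5 and 39.4 after. The treated Parental and RING1B I53S libraries lie above their untreated ones, and the RING1B WT groups overlap.

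Fkbp6, needed for meiotic chromosome pairing, and Tdrd9, a piRNA pathway helicase, were also higher in Parental cells. Fkbp6 stood at 26.1 and 21.1 CPM before and 65.8 and 69.1 CPM after OHT (1.51 ± 0.36). Its value was 1.47 without treated replicate 2 and 1.34 without untreated replicate 2, under the size threshold, as it was with the replicate number as a block (1.48) and with each comparison fitted alone (1.49). Tdrd9 was at 1.63 and 2.47 CPM before and 6.15 and 8.87 CPM after (1.89 ± 0.49, adjusted p = 0.00505), and its adjusted p became 0.0606 without treated replicate 2 and 0.0597 without untreated replicate 1. Sycp3, an axis protein of the synaptonemal complex, was at 25 and 25 CPM before and 57.2 and 51.2 CPM after (1.12 ± 0.21, adjusted p = 0.000337), past the adjusted p but below the size threshold.

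Other germline genes with strong free sites were not called higher. Tdrd12, a Tudor-domain gene of the piRNA pathway with a PCGF6 score of 166, stood at 145 and 181 CPM in untreated and 136 and 128 CPM in treated Parental cells (−0.30 ± 0.18). Hsf2bp (score 104), a meiotic recombination factor, was at 132 and 155 CPM before and 92.3 and 78.1 CPM after (−0.75 ± 0.25, adjusted p = 0.0251), with no overlap between the groups but below the size threshold. Hormad2 (score 174), a chromosome axis gene, had a log2 fold change of 0.50 ± 0.25, Msh4 (138) of −0.56 ± 0.49, Terb2 (88.6) of −0.21 ± 0.33 and Terb1 (111) of 1.84 ± 0.94, none past the test. Of the remaining 11 germline genes at free sites, 6 were called higher in Parental cells, and the plot of all 21 shows them from 5.34 to −1.07. Of these, Tex101 and Asz1 were called higher in RING1B WT cells too (2.1 ± 0.45 and 2.09 ± 0.51), but no gene at a free site stayed called higher in that line without treated replicate 2 or without untreated replicate 2, where Tex101 had an adjusted p of 0.411 and 0.0610 by edgeR.

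**Figure D5:**
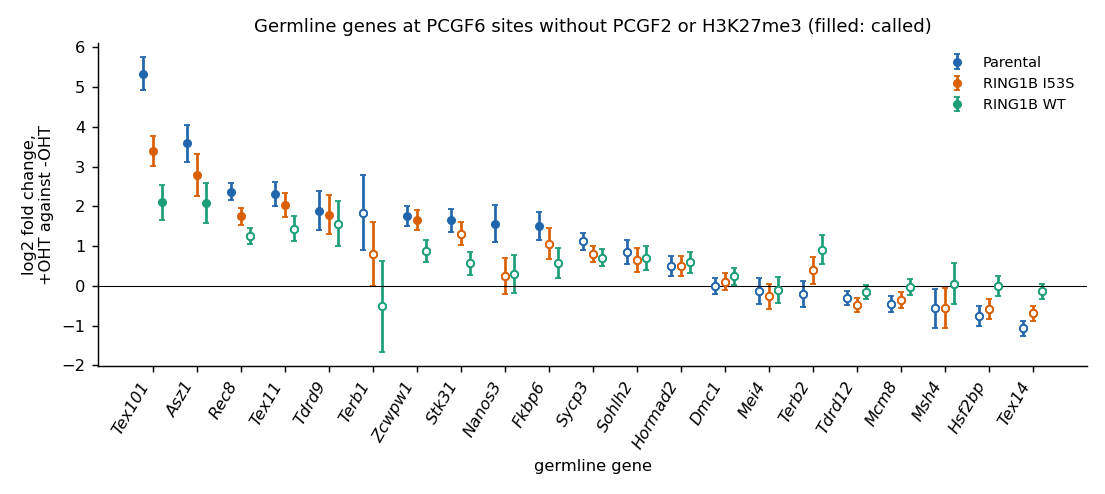
Log2 fold change with OHT against −OHT (points, with SE) of the 21 germline and meiosis genes at free sites, in Parental (blue), RING1B I53S (orange) and RING1B WT (green) cells, ordered by the Parental value. Filled points passed the adjusted p and size thresholds: 9 in Parental, 6 in RING1B I53S and 2 in RING1B WT cells.

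The genes at free sites with the lowest adjusted p among those higher in Parental cells were Tex101, Rec8, Cpm, Col2a1 and Crym. All 5 had a PCGF2 or H3K27me3 peak within 2.5 kb of a start, and their free sites were modest (PCGF6 scores 24.1, 15.2, 14.5, 12.4 and 32.5). Tex101, a germ cell surface protein, rose from 1.47 and 2.23 to 65.0 and 81.5 CPM in Parental cells (5.34 ± 0.41, adjusted p = 2.5e-08) and from 2.63 and 3.36 to 28.2 and 34.4 CPM in RING1B I53S cells (3.39 ± 0.37). Rec8, the meiotic cohesin subunit, rose from 33.6 and 28.2 to 162 and 157 CPM (2.37 ± 0.22) in Parental and from 44.3 and 29.6 to 117 and 132 CPM (1.75 ± 0.21) in RING1B I53S cells. Both rose in both lines with no overlap between groups.

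Of the other 3, Cpm, a carboxypeptidase, rose by 3.03 ± 0.30, Col2a1, a cartilage collagen, by 2.52 ± 0.27 and Crym, a thyroid hormone binding protein, by 2.35 ± 0.26. In RING1B I53S cells the 5 with the lowest adjusted p were Col2a1 (2.85 ± 0.28), Tex101, Fgfr2 (3.54 ± 0.40), a fibroblast growth factor receptor, Rec8 and Tanc2 (2.09 ± 0.26). Some of these sites lay at an alternative start. The Cpm site (from chr10:117675528) is inside a plus-strand gene that begins at 117629500. The Col2a1 site (from chr15:97992709) is inside a minus-strand gene that begins at 98004695. The Fgfr2 site (from chr7:133124002) is at the far end of a record spanning 130162451 to 133123350. Which start the RNA came from was not tested. Of the 112 genes higher in Parental and the 87 higher in RING1B I53S cells, 66 were in both (58.9% and 75.9%), and the 2 comparisons use separate libraries. Without 1 library some calls fell under the size threshold, in RING1B I53S cells Rec8 (1.48 without untreated replicate 2), Crym (1.36 without treated and 1.46 without untreated replicate 2), Sall1 (-1.45 without untreated replicate 1) and Kdm3a (-1.48 without untreated replicate 2), and in Parental cells Tanc2 (1.45 without untreated replicate 1).

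Lower genes were led by Lefty2, a Nodal antagonist of the pluripotent state. It stood at 1404 and 1397 CPM in untreated and at most 162 CPM in both treated Parental libraries (−3.32 ± 0.22, adjusted p = 4.83e-09), and at 956 and 1166 before and 83.8 and 131 CPM after in RING1B I53S cells (−3.30 ± 0.22). In RING1B WT cells it stood at 1232 and 1370 before and 675 and 623 CPM after (−1.0 ± 0.20). The Parental and RING1B I53S values fell to less than those of RING1B WT cells. Sall1, a zinc finger factor, fell by 2.49 on the log2 scale in Parental and by 1.76 in RING1B I53S cells, Kdm3a, a histone H3K9 demethylase gene with a strong site (97.1), by 1.86 and 1.51, 1700019D03Rik by 2.09 and 1.69, and Pfkp, a phosphofructokinase, by 1.56 in Parental cells. Pga5 (−2.85 ± 0.32) and 2610037D02Rik (−2.0 ± 0.25) were the other 2 of the 5 lowest in RING1B I53S cells, where 13 genes were lower in both lines (34.2% of 38 and 68.4% of 19).

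Among genes at the 10 strongest free sites, changes were few. Gdf15 stood at 22.5 and 15.2 CPM before and 5.55 and 5.65 CPM after OHT in Parental cells (−1.76 ± 0.30, adjusted p = 0.000185) and at 21.3 and 17.7 and then 4.71 and 8.61 CPM in RING1B I53S cells (−1.54 ± 0.30), where it falls under the size threshold without replicate 1 of either group (−1.18 and −1.41). In Parental cells it is at −1.47 without untreated replicate 1. Tug1 fell by 1.53 in Parental cells (192 and 219 to 79.0 and 63.4 CPM), and by 1.38 without treated replicate 2 and 1.46 without untreated replicate 2, below the size threshold. Cops7a, at the strongest free site, stood at 294 and 248 CPM before and 319 and 346 CPM after (0.29 ± 0.18) and did not pass the test. Stk31 was higher, and Zfp280d, B3galt6, Sdf4, Acbd4, Plcd3, Nipsnap2, Morc2a and Gm15903 had log2 fold changes between −0.95 and 0.98 and no call, while Gm23851, Gm27253, Gm27640 and Gm27937 were too low to test.

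Genes of the complex and of E2F-linked programmes were seldom past the size threshold, but many were lower by adjusted p alone. Of the 7 PRC1.6 genes with a free site none was called in any line, with medians of −0.51 in Parental and −0.38 in RING1B I53S cells, and of the whole list of 16 none. By adjusted p alone 7 of the 16 were lower in Parental cells (median −0.53), where 12.4% of all genes were. In Parental cells Max (−0.92 ± 0.20, adjusted p = 0.0016), Mga (−0.56 ± 0.20, 0.0324) and L3mbtl2 (−0.68 ± 0.21, 0.0165), the last without a free site, passed the adjusted p but not the size threshold. Pcgf6 itself was at 31.6 and 33.4 CPM before and 24.1 and 21.6 CPM after in Parental cells (−0.51 ± 0.24, adjusted p = 0.109) and at 25.9 and 27.1 and then 38.2 and 21.9 CPM in RING1B I53S cells (0.18 ± 0.24). E2f6 (0.64 ± 0.27), Tfdp1 (0.21 ± 0.19) and Cbx3 (−0.25 ± 0.20) did not pass. Of 44 cell cycle and DNA replication genes 10 had a free site and none of these was called, with 4 lower in Parental cells by adjusted p alone. Over all 44 the median was −0.59 in Parental cells, with 1 called lower and 22 lower by adjusted p alone, and in RING1B I53S cells 18 were lower by adjusted p alone. In that line 8.37% of all genes were lower by adjusted p alone. Of 80 ribosomal protein genes 11 had one and none was called. Of all 18154 genes tested, 3209 had a free site, and in Parental cells 15.1% were called higher and 1.83% lower. An absence of lower calls among 7, 10 or 11 genes is thus near that background.

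The OHT effect differed between lines for some genes at free sites. Between RING1B I53S and Parental cells no gene at a free site differed by edgeR, 46 of 3209 having an unadjusted p under 0.05, and none by DESeq2, 33 of 3828 having an unadjusted p under 0.05. This comparison called 0% of all genes in either direction. Between RING1B WT and Parental cells 14 differed past the adjusted p and the size threshold, 7 in each direction (0.218% each). Of all genes 0.435% and 1.10% did so upwards and downwards. By adjusted p alone 18 genes at free sites differed upwards and 7 downwards. For the lower genes among the 14 the fall was smaller in RING1B WT cells. Examples on the log2 scale are 2.31 ± 0.29 for Lefty2 (adjusted p = 0.000159) and 1.63 ± 0.42 for Gdf15 (0.0478). Tex101 (−3.24 ± 0.64, 0.00939) and Fgfr2 (−2.87 ± 0.55, 0.00718) rose less.

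The cells themselves changed with OHT in ways that go with these values. All 8 pluripotency markers stood at 46.5 CPM or more in every library of the 3 lines. Their summed level went from 3430 and 4105 CPM to 2009 and 1937 CPM in Parental cells, and from 3698 and 4339 to 2303 and 2149 CPM in RING1B I53S cells. The sum of 7 primitive endoderm markers went from 3.50 and 3.09 to 49.0 and 51.7 CPM in Parental cells, and that of 8 trophectoderm markers from 196 and 165 to 443 and 436 CPM, with Gata6, Foxa2 and Sox7 at 0 in both untreated Parental libraries. All 7 endoderm and 5 of 7 tested trophectoderm markers were higher in Parental cells, and 2 pluripotency markers were lower and 1 higher. The sum of 6 fibroblast markers went from 14 and 11.9 to 48.4 and 45.7 CPM in Parental cells, where 2 of the 3 tested were called higher and all 3 passed the adjusted p, while Col3a1 and Lum were at 0 in all 4 libraries. In bulk RNA, fewer cells of a type and less RNA per cell cannot be told apart, and the part of these shifts in the changes above, such as that of Lefty2, was not tested.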

How the data were processed

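Peak lists and a gene count table were used as deposited. Per the study's methods the authors aligned ChIP-seq reads to mm10 (with dm6 for spike-in libraries) using Bowtie 1.2.2, removed duplicates, and called peaks with MACS2 2.1.1. Column 5 of each of the 74 deposited lists is −log10 p, at least 10 in every list, called per library, so depth and signal per site are not known. The authors made the deposited counts with STAR 2.7 and featureCounts over GENCODE exons, without strand.

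Sites and overlaps (at least 1 bp) were computed in Python 3.11.15 with numpy 2.4.6, scipy 1.17.1, pandas 2.3.3 and pysam 0.24.0, and figures with matplotlib 3.10.9. Intervals are 95% Wilson intervals. Starts and positions are from GENCODE M21, and letters from GRCm38.p6. RNA was fitted in edgeR 4.0.16 (R 4.3.3, filterByExpr, TMM, quasi-likelihood, Benjamini-Hochberg), with the 12 libraries of 3 lines in 1 fit and the 4 Eed fl/fl libraries in another, and DESeq2 1.42.0 as an alternative. CPM values are counts scaled to the normalized library total (library size times TMM factor). RPKM values divide CPM by the summed length of a gene's exons. The scripts were tested on simulated data. The same replicate number does not mark a shared culture in the sources used here.

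Named genes were the 10 germline genes with the highest site score, genes at the 10 strongest sites, the 5 higher and 5 lower genes with the lowest adjusted p in Parental and in RING1B I53S cells, and 7 PRC1.6 genes. Members, lists and tests were chosen with earlier results of these data known. One RYBP library with no group in the labels entered no comparison. A gene that these rules name is not reported here.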

Additional observations from a re-analysis of the deposited data

Results flagged for a closer look

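The OHT effect was compared between RING1B WT and Parental cells by a test of the difference (edgeR, adjusted p under 0.05). For 8 named genes the difference also passed the size threshold used for calls. As log2 differences, RING1B WT minus Parental, they were 2.31 for Lefty2, 2.80 for Pga5, 1.97 for Sall1 and 1.63 for Gdf15, which fell less in RING1B WT cells, and −2.64 for Cpm, −2.87 for Fgfr2, −3.24 for Tex101 and −1.84 for Col2a1, which rose less. With 1 RING1B WT replicate 1 library left out, treated or untreated, 5 of the 8 passed.

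A RYBP library whose title is spelled unlike those of the treated or the untreated Parental libraries, so that its group is ambiguous, listed 61 peaks, of which 21 free sites held one (0.500% of free sites), against at most 5 free sites in any input list.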

How the results depend on the processing

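Limits: peak lists come from single libraries and their length sets what can be called, shares over sites have counting error only, and 2 RNA libraries per group leave small changes unresolved. A score of at least 20 throughout left 1953 sites. The share of sites with PCGF6 after OHT in Parental, RING1B WT and RING1B I53S cells was 83.8%, 89.8% and 56.1% when only sites scoring at least 20 were kept. With peaks scoring at least 20 throughout it was 64.7% in RING1B WT and 26.1% in RING1B I53S cells, with 50% of the site covered it was 51.6% in Parental and 24.9% in RING1B I53S cells, and off chromosome 11, a choice made after seeing the data, 52.8% and 25.6%. For untreated Parental cells, sites scoring at least 20 gave RING1B 12.5%, H2AK119ub1 21.7%, RYBP 34.5% and SUZ12 20.4%; only peaks scoring at least 20 gave RING1B 4.61%, H2AK119ub1 8.70% and RYBP 9.17%; 50% cover gave H2AK119ub1 7.5% and SUZ12 19.8%; and a gap of 1000 bp in the rule gave H2AK119ub1 13.2% and SUZ12 15.7%. Higher and lower genes numbered 52 and 20 in Parental and 32 and 9 in RING1B I53S cells with at least 10 counts in every library (1 lower in RING1B WT), 349 and 505, 252 and 306, and 26 and 15 in Parental, RING1B I53S and RING1B WT cells by FDR alone, and 54 and 14, and 40 and 7 in Parental and RING1B I53S cells for sites scoring at least 20. Without genes near PCGF2 or H3K27me3, chosen after seeing the data, 48, 36 and 6 were higher in Parental, RING1B I53S and RING1B WT cells. In RING1B WT cells each comparison fitted alone gave 7 higher and 1 lower and no filter on low counts 20 higher. In Eed fl/fl cells DESeq2 gave 1 higher and 2 lower. Leaving out 1 library at a time gave 89 to 116 higher and 26 to 39 lower in Parental cells, 52 (without untreated replicate 2) to 101 and 14 to 28 in RING1B I53S cells, 0 (without replicate 2 of either group) to 14 and 0 to 8 (without treated replicate 1) in RING1B WT cells, and 0 to 16 (without untreated replicate 2) and 0 to 2 in Eed fl/fl cells, and 5 to 8 named genes with a difference between RING1B WT and Parental cells. With the replicate number as a block Eed fl/fl cells gave 8 higher and 2 lower, and counts in the other lines stayed within 1.5 times (114 and 39, 89 and 20, 15 and 2). The numbers are not known to pair samples: replicate differences correlated at 0.133, 0.215, 0.0884 and 0.562 in Parental, RING1B I53S, RING1B WT and Eed fl/fl cells. Among named genes, 315 values kept direction and call and 28 lost a call, and none reversed. All DESeq2 calls at free sites in Parental, RING1B I53S and RING1B WT cells were also edgeR calls.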
